A study of Anser cygnoides with 6 samples.

Results

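The genes that copy and mend DNA were measured in myoblasts of the Shitou goose, muscle precursor cells that divide in growth medium and withdraw from the cell cycle and fuse into myotubes when serum is lowered. Members were all rows of the gene table whose first symbol belongs to a fixed set of replication and repair names. The set runs from the origin recognition complex (ORC) and the MCM helicase through polymerases and clamp loaders to topoisomerases. It also holds the homologous recombination, Fanconi anemia, mismatch repair, XRCC and ERCC genes. The rule used names and no measured value. It found 87 of 14283 gene rows. Rows that name MCM6, RAD54B, MSH4 or ERCC3 behind another symbol were left out.

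The study compared 2 stages, with 3 wild-type cultures and 3 libraries each. DM cultures were differentiated in 2% horse serum, for 2 to 4 days by the sample labels and 3 days by the methods, and GM cultures were still proliferating in growth medium with 15% fetal bovine serum, for which the methods also give another share. The cells of both stages were primary myoblasts taken from goose embryo legs, enriched over fibroblasts by serial plating, pooled and then split into cultures, and their ribosomal RNA was depleted before sequencing. By that account the p-values measure the spread between cultures of a mixed pool and not between animals. The methods also speak of data from 6 geese, and this conflict was not resolved.

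Replication starts where ORC loads a ring of MCM2 to MCM7 onto DNA, the ring is activated with GINS, and polymerases then copy both strands behind it, held by the PCNA clamp. Many of these genes are transcribed by E2F factors late in G1 and in S phase and are held down by RB family proteins in cells that stop dividing. Repair genes remove mismatches, bulky lesions, crosslinks and breaks, and part of them work at the same forks.

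Values were FPKM, fragment counts scaled by transcript length and by the mapped fragments of the library, so levels of different genes can be set side by side per length. The number of reads behind each value is unknown, and no counting interval was computed. A gene rose or fell in DM when its difference in log2(FPKM + 1) had an adjusted p-value under 0.05 over all genes tested, using limma with the Benjamini-Hochberg method. A differentially expressed gene (DEG) also had a log2 fold change beyond 1 in either direction. All log2 fold changes are DM over GM on the log2(FPKM + 1) scale, which understates the change of low genes. An exact permutation test of 3 against 3 libraries cannot go below p = 0.1. In bulk RNA, fewer cells of a type and less RNA per cell cannot be told apart.

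The series as a whole separated the stages. The summed FPKM of 10 myotube markers was 578.1 to 608.6 in DM libraries and 243.5 to 269.7 in GM libraries, and 7 of them rose, although MYOG did not pass the test (log2 fold change −0.45, adjusted p = 0.0528). All 4 measured myoblast markers fell, with a summed FPKM of 30.6 to 32.5 in DM libraries and 79.5 to 88.7 in GM libraries. Of 10 measured markers of dividing cells, 1 fell (CCNB1, a mitotic cyclin) and 3 rose (CCNB2, BUB1B and CENPF), and their summed FPKM was 184.6 to 263.2 in DM libraries and 186.4 to 203.4 in GM libraries. The summed FPKM of 7 fibroblast markers was 4272 to 4533 in DM libraries and 2026 to 2067 in GM libraries. Of these, 5 rose among 6 tested, and TCF21 was listed at 0 in DM_1. The summed markers of each other cell type were lower in all DM libraries than in all GM libraries, although TEK, ADIPOQ and PLIN1 overlapped between the stages. The summed FPKM of the blood markers PTPRC and SPI1 was 3.73 to 4.08 in DM libraries and 6.78 to 7.62 in GM libraries, and both fell. That of 4 endothelial markers was 1.21 to 1.28 in DM libraries and 2.15 to 2.37 in GM libraries, where PECAM1 fell and CDH5, KDR and TEK were below 0.5 FPKM in every library. That of 3 adipocyte markers was 1.37 to 3.63 in DM libraries and 5.94 to 8.45 in GM libraries, where PPARG fell (log2 fold change −1.41, a DEG), ADIPOQ did not pass the test and PLIN1 was listed at 0 in all DM libraries. The part of any of these markers in the results below was not tested.

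Of the 87 members, 85 had a mean of at least 0.5 FPKM and were tested. The mismatch repair family gene MSH5 and the recombination gene RAD51AP2 stayed below that level, with means of 0.25 and 0.03 FPKM over the 6 libraries. PCNA had the highest mean level, 76.9 FPKM, followed by the mitotic topoisomerase TOP2A at 67.8 FPKM and the ribonucleotide reductase subunit RRM1 at 56.3 FPKM. MCM4 averaged 39.6 FPKM and RPA2 37.6 FPKM. At the low end of the tested members stood the helicase BRIP1 at 0.75 FPKM and the Ku80 gene XRCC5 at 0.69 FPKM. In DM libraries the lowest value of PCNA, TOP2A or RRM1 was 43.7 FPKM.

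Of 85 tested members, 14 passed the test, 9 lower and 5 higher in DM. That is 16.5% of the members, against a background of 30.3% of all 10381 genes tested. The lower calls were 10.6% of the members (15.5% of all genes) and the higher calls 5.88% (14.7% of all genes). By limma, 0 members were DEGs, against 4.02% of all genes (1.84% lower and 2.18% higher). An unadjusted p under 0.05 was found for 23 of the 85 members, against 4415 of all 10381 genes. Of those 23, 1 (FEN1) was also beyond the 2-fold limit. The libraries of the stages did not overlap in 29 members (17 with DM below GM and 12 with DM above GM), which compares with 48.6% of all genes (25.7% below and 23% above).

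The median log2 fold change of the members was −0.05, and that of all genes tested was −0.03. There were 49 members below 0 (57.6%, compared with 52.8% of all genes) and 36 above it. The 95% interval of the log2 fold change lay between −1 and 1 for 78 members, or 91.8%, compared with 83.4% of all genes. It lay between −0.5 and 0.5 for 46 members, or 54.1%, compared with 44.8% of all genes. The 7 members with a wider interval than −1 to 1 were FEN1, MCM10, MSH6, RRM2B, RRM1, RAD51AP1 and XRCC2.

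**Figure D1:**
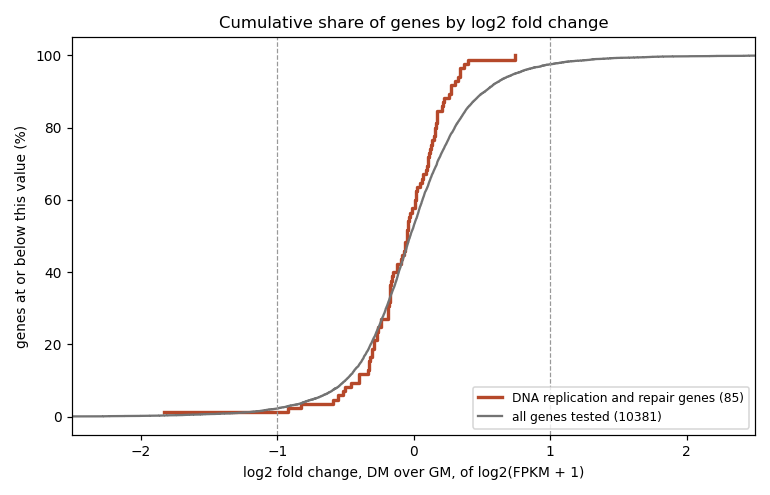
Cumulative share of genes (%, vertical axis) at or below each log2 fold change of log2(FPKM + 1), DM over GM (horizontal axis), for the 85 members tested and all 10381 genes tested. The dashed lines mark −1 and 1. The medians are −0.05 for the members and −0.03 for all genes, and 1 member, FEN1, lies past the dashed lines.

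**Figure D2:**
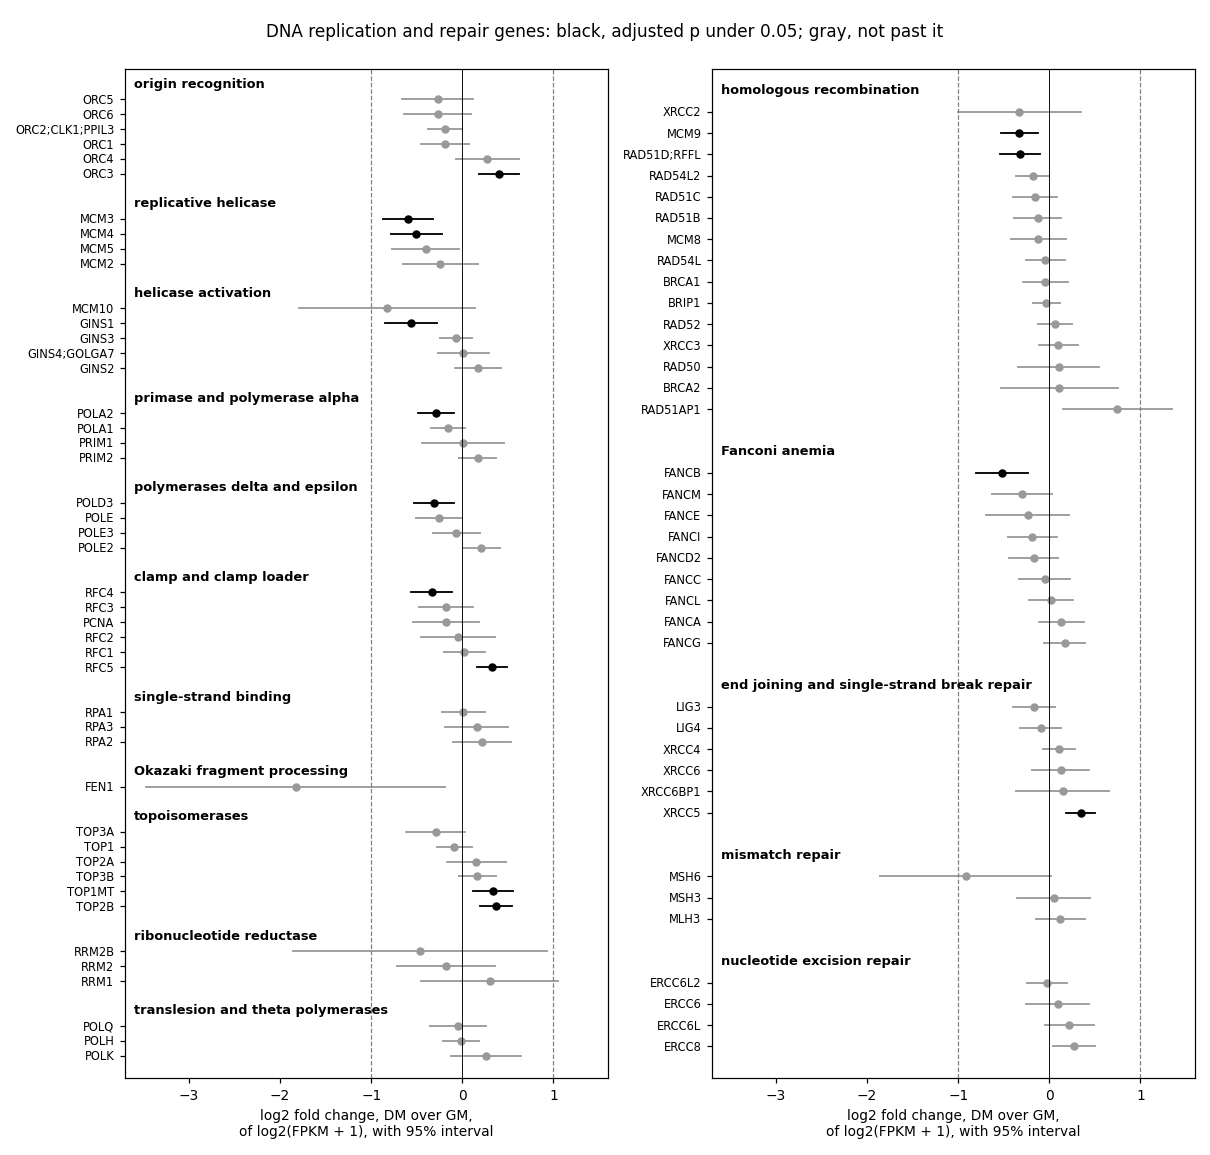
Log2 fold change of log2(FPKM + 1), DM over GM, of 82 tested members with their 95% intervals, grouped by role. Black marks the 14 members past an adjusted p of 0.05 and gray the rest. MCM3, MCM4 and GINS1 stand on the lower side, and the interval of FEN1 reaches from −3.47 to −0.19.

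The counts by role below are to be read beside the 15.5% of all genes called lower and the 14.7% called higher. With few members in a role, such a count describes those genes and not the role. In the replicative helicase, MCM3 and MCM4 fell. MCM2 to MCM5 are subunits of the ring that unwinds DNA, and 2 of these 4 fell, with a median log2 fold change of −0.45. MCM6 and MCM7 were not among the members: MCM6 is the second name of a row shared with DARS, which had 18.2, 21.8 and 24.2 FPKM in DM libraries, against 17.9, 19.8 and 21.8 FPKM in GM libraries, and no call (log2 fold change 0.10, adjusted p = 0.582), and no row was named MCM7.

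MCM3 had 14.7, 14.7 and 19.5 FPKM in DM libraries, against 24.4, 25.0 and 25.4 FPKM in GM libraries. Every DM library was below every GM library. The means were 16.3 ± 2.74 FPKM in DM and 24.9 ± 0.477 FPKM in GM (SD, n = 3 each), a log2 fold change of −0.59 (SE 0.11, adjusted p = 0.0124). MCM3 fell with any 1 library left out, with an adjusted p of at most 0.0448 in limma.

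MCM4 had 27.8, 32.1 and 38.0 FPKM in DM libraries, against 45.2, 48.4 and 45.9 FPKM in GM libraries. The stages did not overlap here either, and the log2 fold change was −0.51 (SE 0.12, adjusted p = 0.0211). The call was lost without GM_1, GM_2, GM_3 or DM_2, each left out alone, with an adjusted p of up to 0.0705.

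MCM5 had 20.7, 25.5 and 32.2 FPKM in DM libraries, against 33.5, 35.1 and 34.3 FPKM in GM libraries. All 3 DM libraries were lower, DM_3 only slightly so, and the log2 fold change of −0.40 (95% interval −0.77 to −0.04) did not pass the test (adjusted p = 0.0933). It passed without DM_3 (log2 fold change −0.56, adjusted p = 0.0180). It also passed with library sums made equal (0.0384), with upper quartiles made equal (0.0451) and with quantile normalization (0.0396).

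MCM2 had 7.20, 9.41 and 12.05 FPKM in DM libraries, against 10.46, 11.8 and 11.6 FPKM in GM libraries. DM_3 was above all GM libraries, so the stages overlapped, and the log2 fold change was −0.24 (95% interval −0.66 to 0.17, adjusted p = 0.325). The 4 subunits together summed to 70.3, 81.8 and 101.7 FPKM in DM libraries, against 113.6, 120.2 and 117.1 FPKM in GM libraries. The sums of the stages did not overlap, and those of DM spread more widely.

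Helicase activation had 1 call in 5 members. GINS1, a subunit of the GINS complex that joins the MCM ring with CDC45, had 3.19, 4.13 and 4.18 FPKM in DM libraries, against 5.63, 6.76 and 5.90 FPKM in GM libraries. Its stages did not overlap, and it fell with a log2 fold change of −0.56 (SE 0.12, adjusted p = 0.0165). Only leaving out GM_2 ended the call (adjusted p = 0.0553). The other GINS subunits did not follow within the test: log2 fold changes were −0.07 for GINS3, 0.17 for GINS2 and 0.01 for a row that joins GINS4 with GOLGA7 and measures that combined locus. A difference between GINS subunits was not tested.

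Origin recognition had 1 call in 6 members, in the opposite direction. ORC3, a core subunit of the complex, had 9.53, 10.7 and 11.6 FPKM in DM libraries, against 7.31, 8.04 and 8.08 FPKM in GM libraries. All DM libraries were above all GM libraries, and ORC3 rose with a log2 fold change of 0.40 (SE 0.09, adjusted p = 0.0211). Leaving out GM_1, GM_2, GM_3 or DM_2 alone ended the call, with an adjusted p of up to 0.0700. The other 5 rows ranged in log2 fold change between −0.27 for ORC5 and 0.28 for ORC4, with adjusted p-values of at least 0.112, and the ORC2 row also holds CLK1 and PPIL3.

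Among the polymerases, 1 of 4 primase and polymerase alpha genes and 1 of 4 polymerase delta and epsilon genes fell. POLA2, the B subunit of the polymerase alpha that starts each new strand with primase, had 1.26, 1.39 and 1.30 FPKM in DM libraries, against 2.02, 1.86 and 1.63 FPKM in GM libraries. DM was below GM throughout, with a log2 fold change of −0.29 (SE 0.08, adjusted p = 0.0410). With a pseudocount of 0.1 that change was −0.45. The call was lost without GM_1, GM_2, DM_1, DM_2 or DM_3, each left out alone (adjusted p up to 0.114), and without the filter on low values (0.0509).

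POLD3, an accessory subunit of the lagging strand polymerase delta, had 2.61, 3.01 and 3.17 FPKM in DM libraries, against 3.61, 3.85 and 4.11 FPKM in GM libraries. It fell with a log2 fold change of −0.31 (SE 0.09, adjusted p = 0.0483), and its stages did not overlap. The call was lost whichever 1 of the 6 libraries was left out, with an adjusted p of up to 0.137, and without the filter on low values (0.0623). The catalytic subunit of polymerase epsilon, POLE, was at −0.26 in log2 fold change and its partner POLE2 at 0.21, and neither passed the test (adjusted p = 0.104 and 0.113), although POLE passed with library sums (0.0412) or upper quartiles (0.0410) made equal. The primase subunits PRIM1 (0.01) and PRIM2 (0.17) and the alpha catalytic subunit POLA1 (−0.16) did not pass it either.

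The clamp and its loader had calls in both directions. PCNA, the sliding clamp, had 57.5, 73.7 and 86.8 FPKM in DM libraries, against 81.3, 85.2 and 77.1 FPKM in GM libraries. The stages overlapped, DM_1 being the lowest and DM_3 the highest of all 6, and the log2 fold change was −0.18 (95% interval −0.54 to 0.18, adjusted p = 0.407).

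RFC4, a subunit of the replication factor C that opens the clamp, had 14.7, 16.9 and 17.05 FPKM in DM libraries, against 18.8, 20.9 and 22.5 FPKM in GM libraries. It fell by 0.33 on the log2 scale (SE 0.09, adjusted p = 0.0394). RFC5, a subunit of the same complex, had 25.4, 26.6 and 28.5 FPKM in DM libraries, against 20.6, 20.6 and 22.4 FPKM in GM libraries. It rose by 0.33 (SE 0.07, adjusted p = 0.0174), so that both differed between the stages without overlap and in opposite directions. Within each library the ratio of RFC5 to RFC4, looked at after the values were seen and not tested, was 1.57 to 1.73 in DM and 0.987 to 1.09 in GM. The RFC4 call was lost without GM_2, GM_3, DM_1, DM_2 or DM_3 (adjusted p up to 0.114) and the RFC5 call without GM_1, GM_2 or DM_2 (up to 0.0642), each left out alone. RFC1, RFC2 and RFC3 had log2 fold changes of 0.02, −0.05 and −0.18 and did not pass the test.

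**Figure D3:**
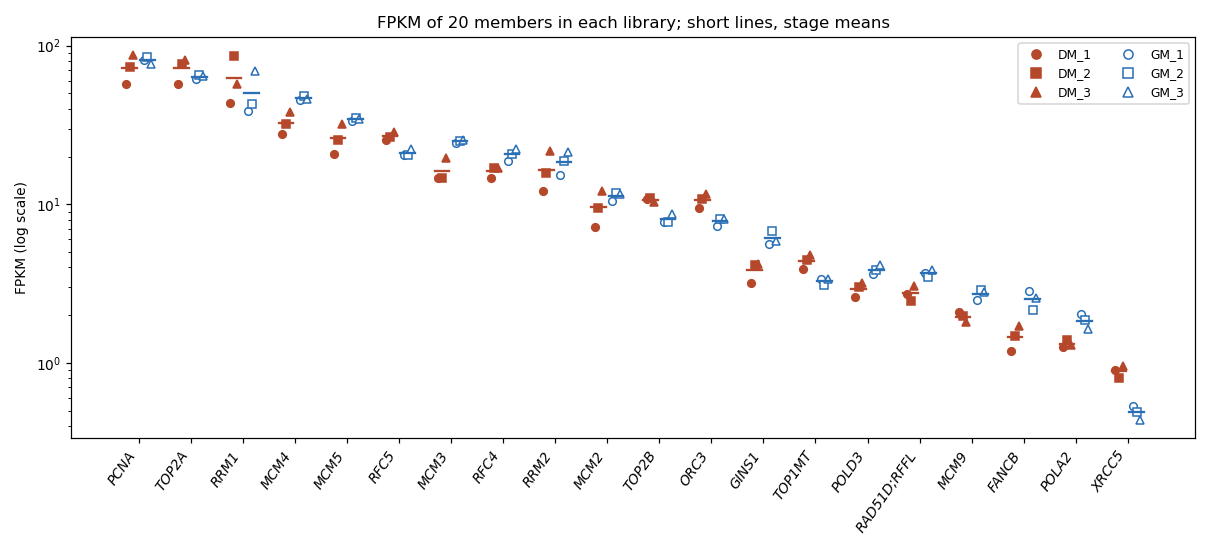
FPKM (log axis) of 20 members in each library, DM filled and GM open, with circles, squares and triangles for replicates 1, 2 and 3 and short lines for the stage means. MCM3, MCM4, GINS1 and RFC4 lie lower in all DM libraries and RFC5, TOP2B, ORC3 and XRCC5 higher, while PCNA and TOP2A overlap, with DM_1 lowest.

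In limma, 0 of the 3 single-strand binding genes passed the test, also at an unadjusted p under 0.05. RPA1, RPA2 and RPA3 encode the trimer that coats unwound DNA, and their log2 fold changes were 0.01, 0.22 and 0.16. RPA1 had 29.4, 33.0 and 38.1 FPKM in DM libraries, against 32.8, 33.8 and 32.4 FPKM in GM libraries. The GM values fell inside the range of the DM values. Within each library, the summed FPKM of MCM2 to MCM5 over that of RPA1 to RPA3 was 0.967, 0.905 and 1.03 in DM, against 1.497, 1.457 and 1.482 in GM. Over PCNA the same sum was 1.22, 1.11 and 1.17 in DM, against 1.40, 1.41 and 1.52 in GM. These ratios were chosen after the values were seen and are given without a test. In both, the stages did not overlap.

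Of the 6 topoisomerase genes, only some of which relieve the twist that builds up ahead of a fork, 2 rose, TOP2B and TOP1MT. TOP2B, the type II form that cells keep outside of division, had 10.8, 10.9 and 10.3 FPKM in DM libraries, against 7.78, 7.74 and 8.67 FPKM in GM libraries. All DM libraries were higher, with a log2 fold change of 0.37 (SE 0.07, adjusted p = 0.0126). Leaving out DM_2, and no other library, ended the call (adjusted p = 0.0507).

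TOP1MT, the mitochondrial type I enzyme, had 3.93, 4.43 and 4.82 FPKM in DM libraries, against 3.36, 3.09 and 3.36 FPKM in GM libraries. It rose with a log2 fold change of 0.34 (SE 0.09, adjusted p = 0.0370) and no overlap. The call was lost without GM_1, GM_2, GM_3, DM_2 or DM_3, each left out alone (adjusted p up to 0.111).

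TOP2A, the type II form of dividing cells, had 57.6, 76.4 and 81.6 FPKM in DM libraries, against 61.3, 65.4 and 64.5 FPKM in GM libraries. DM_1 was below all GM libraries and the other two DM libraries above them, and the log2 fold change was 0.16 (95% interval −0.17 to 0.48, adjusted p = 0.415). Without DM_1 it was 0.31 and passed the test (adjusted p = 0.0174). TOP1 (−0.09), TOP3A (−0.29) and TOP3B (0.17) did not pass it.

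Ribonucleotide reductase makes the deoxyribonucleotides that polymerases use, and its 3 genes did not pass the test, also at an unadjusted p under 0.05. RRM1, the large subunit, had 43.7, 86.4 and 57.0 FPKM in DM libraries, against 38.7, 42.8 and 69.0 FPKM in GM libraries. RRM2, the small subunit of S phase, had 12.1, 15.6 and 21.8 FPKM in DM libraries, against 15.2, 18.7 and 21.4 FPKM in GM libraries. Both overlapped widely, with log2 fold changes of 0.30 (95% interval −0.45 to 1.05, adjusted p = 0.50) for RRM1 and −0.18 (−0.71 to 0.36, adjusted p = 0.588) for RRM2.

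Some members differed more between libraries of a stage than between stages. Within DM or within GM, 9 of 85 members had a highest value more than 2 times the lowest, among them FEN1, RRM2B, MSH6, MCM10, XRCC2, FANCE, BRCA2 and RAD51AP1. The range was that wide in DM for 8 of the 9 and in GM for 4. The same count was not made over all genes, so it is not known whether such ranges are particular to the members. The first 4 and RAD51AP1 are described here because of their values, which were seen first. In these genes, and in MCM5, TOP2A and ERCC8, a pass without the library that stood apart only describes that library. Such a pass supports no difference between the stages.

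FEN1, the nuclease that trims the flaps of Okazaki fragments, had 2.80, 1.46 and 15.6 FPKM in DM libraries, against 17.95, 17.92 and 18.43 FPKM in GM libraries. All DM libraries were lower, but DM_3 was close to GM and 10.7 times as high as DM_2. The log2 fold change of −1.83 was the lowest of the members, with a 95% interval of −3.47 to −0.19 and an adjusted p of 0.0890. Without DM_3 FEN1 was a DEG (log2 fold change −2.64, adjusted p = 0.00192), the only member to be one in that fit.

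MSH6, which recognizes base mismatches, had 4.77, 16.2 and 6.62 FPKM in DM libraries, against 15.6, 16.8 and 16.4 FPKM in GM libraries. Here DM_2 was the library that matched GM (log2 fold change −0.92, adjusted p = 0.124), and MSH6 was a DEG without it (−1.38, adjusted p = 0.00527). MCM10, which helps to activate the helicase, had 1.32, 2.80 and 2.07 FPKM in DM libraries, against 1.89, 6.19 and 6.27 FPKM in GM libraries. Its low GM library was GM_1, without which MCM10 was a DEG (−1.27, adjusted p = 0.0189), and with all libraries its log2 fold change was −0.83 (adjusted p = 0.166).

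RRM2B, the small reductase subunit used outside S phase, had 2.78, 3.38 and 11.1 FPKM in DM libraries, against 10.9, 3.21 and 9.44 FPKM in GM libraries. High and low values occurred in both stages (adjusted p = 0.580). RAD51AP1, which acts in strand invasion, had 6.32, 6.73 and 6.39 FPKM in DM libraries, against 4.77, 1.98 and 4.17 FPKM in GM libraries. It had the highest log2 fold change of the members, 0.74, without overlap and with an adjusted p of 0.0663. Without GM_2 it was 0.45 and passed the test (adjusted p = 0.0314). A noncoding transcript of the same locus, described below, was listed at 0 in all DM libraries and had 8.24, 1.34 and 6.31 FPKM in GM libraries. Whether a division of fragments between these transcripts had a part in the values of RAD51AP1 was not tested. The library that stood apart thus differed between these genes: DM_3 in FEN1, DM_2 in MSH6, GM_1 in MCM10 and GM_2 in RAD51AP1.

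**Figure D4:**
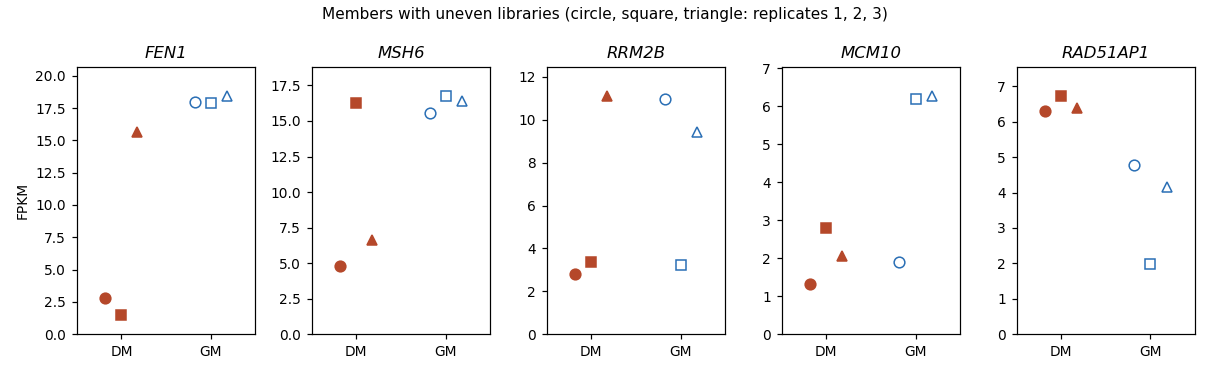
FPKM (linear axes from 0) of FEN1, MSH6, RRM2B, MCM10 and RAD51AP1 in each library, DM left and GM right, with circles, squares and triangles for replicates 1, 2 and 3. FEN1 is high in DM_3 alone among DM libraries (15.6 FPKM) and MSH6 in DM_2 alone (16.2 FPKM), while MCM10 is low in GM_1 (1.89 FPKM).

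Homologous recombination mends breaks from the sister copy, and 2 of its 16 tested members fell and 0 rose. The lower calls were 12.5% of this group, compared with 15.5% of all genes. At an unadjusted p under 0.05 in limma, RAD51AP1 (higher) and RAD54L2 (lower) would be added. RAD54L2 here, ERCC6L under nucleotide excision repair and XRCC6BP1 under end joining are counted by name. Whether they act in these pathways was not examined. MCM9, which forms a repair helicase with MCM8, had 2.10, 1.96 and 1.81 FPKM in DM libraries, against 2.497, 2.861 and 2.780 FPKM in GM libraries. Its stages did not overlap (log2 fold change −0.33, SE 0.08, adjusted p = 0.0293), and the call was lost without GM_2, GM_3, DM_2 or DM_3, each left out alone (up to 0.0929). The row that joins RAD51D, a recombination gene, with RFFL had 2.73, 2.47 and 3.03 FPKM in DM libraries, against 3.68, 3.47 and 3.87 FPKM in GM libraries. It fell as a combined locus (log2 fold change −0.32, SE 0.09, adjusted p = 0.0394), and the call was lost without GM_1, GM_2, GM_3, DM_1 or DM_2, each left out alone (up to 0.116), and without the filter on low values (0.0518).

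BRCA1 and BRCA2, which act early in recombination at breaks, had log2 fold changes of −0.04 and 0.11 and did not pass the test. The other members of this group given here lay between −0.33 (XRCC2) and 0.10 (XRCC3 and RAD50).

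In the Fanconi anemia pathway, which unhooks crosslinks between strands, 1 of 9 members fell. FANCB, a subunit of its core ubiquitin ligase, had 1.18, 1.48 and 1.72 FPKM in DM libraries, against 2.84, 2.17 and 2.57 FPKM in GM libraries. The stages did not overlap, with a log2 fold change of −0.52 (SE 0.12, adjusted p = 0.0213), and the call was lost without GM_1, GM_3 or DM_2, each left out alone (up to 0.0672). FANCD2 and FANCI, the pair that the ligase modifies, had log2 fold changes of −0.17 and −0.19 and did not pass the test.

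End joining seals breaks without a template. Of 6 members grouped under end joining and single-strand break repair, 1 rose. XRCC5, the Ku80 subunit of the Ku ring that caps broken ends, had 0.899, 0.803 and 0.959 FPKM in DM libraries, against 0.536, 0.492 and 0.437 FPKM in GM libraries. All DM libraries were higher, with a log2 fold change of 0.34 (SE 0.07, adjusted p = 0.0127). At this low level the pseudocount matters, and with 0.1 in place of 1 the log2 fold change was 0.75. XRCC5 rose with any 1 library left out, with an adjusted p of at most 0.0498. Its GM mean, 0.488 FPKM, was itself under the 0.5 FPKM minimum, so it was tested through its DM values, and without that minimum its adjusted p was 0.00818. A noncoding transcript that overlaps exons of XRCC5 was listed at 0.721 FPKM in DM_1 and at 0 in every other library. An intronic transcript of 203 bases had 0.317, 0.102 and 1.29 FPKM in DM libraries and was listed at 0 in all GM libraries. Both stayed below the 0.5 FPKM minimum on average and were not tested. Their part in the XRCC5 values was not tested either.

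XRCC6, the Ku70 partner of XRCC5 in a ring with 1 copy of each, had 17.9, 18.2 and 23.9 FPKM in DM libraries, against 16.8, 20.2 and 17.6 FPKM in GM libraries. Its stages overlapped (log2 fold change 0.12, adjusted p = 0.508), and its level was far above that of XRCC5 in every library on the FPKM scale. The ligases LIG3 and LIG4 had log2 fold changes of −0.17 and −0.09 and did not pass the test, nor did XRCC4 (0.11) and XRCC6BP1 (0.14), which is named as a binding partner of XRCC6.

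Mismatch repair (5 tested members), nucleotide excision repair (4) and the translesion and theta polymerases (3) had 0 calls in limma. A row that joins RABGGTB with MSH4, and is not a member, fell (log2 fold change −0.26, adjusted p = 0.0495). ERCC8, which acts in transcription-coupled repair, had 7.49, 8.56 and 8.91 FPKM in DM libraries, against 6.59, 6.21 and 7.40 FPKM in GM libraries (log2 fold change 0.27, adjusted p = 0.0824, and 0.0478 without DM_1). At an unadjusted p under 0.05 there was 1 mismatch repair gene, 1 nucleotide excision repair gene (ERCC8) and 0 of these polymerases. POLH, POLK and POLQ had log2 fold changes of −0.01, 0.26 and −0.05.

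The members also differed between the DM libraries. Of the 85 tested, 68 (80.0%) had their lowest DM value in DM_1, compared with 46.9% of all genes tested, and 62 (72.9%) had their highest DM value in DM_3, compared with 44.2% of all genes. The median deviation of the members from the DM mean of log2(FPKM + 1) was −0.14 in DM_1, 0.02 in DM_2 and 0.12 in DM_3, while that of the other genes was −0.03, 0.00 and 0.03. In GM the medians of the members were −0.03, 0.01 and 0.03, and 41 members were lowest in GM_1 (40.4% of all genes) and 39 highest in GM_3 (35.2% of all genes).

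The summed FPKM of the members was 748.9, 931.1 and 1003 in DM libraries, against 884.2, 938.3 and 964.0 in GM libraries. As a share of all FPKM this was 0.436%, 0.5002% and 0.528% in DM libraries, against 0.510%, 0.515% and 0.531% in GM libraries. DM_1 was thus the lowest of all 6 on both scales and DM_3 was inside or just above the GM range. The median SD of log2(FPKM + 1) was 0.169 in DM and 0.0762 in GM for the members, and 0.127 and 0.0963 for all genes.

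Markers of dividing cells moved in the same way, DM_1 being the lowest DM library in 10 of 10. Without DM_1, 14 members passed the test, 6 lower and 8 higher, of which 10 were called with all libraries, and the median log2 fold change was 0.01, while 29.6% of all genes passed. Without DM_3, 12 passed, 8 lower and 4 higher, and the median was −0.14, while 25.1% of all genes passed. Without DM_2, only 4 passed (18.9% of all genes passed in that fit). Without GM_1, GM_2 or GM_3, the members called numbered 7, 5 and 6, while 19.9%, 19.4% and 19.9% of all genes passed. What sets DM_1 apart from DM_3 was not tested. The genes share their libraries, and these counts are a description.

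**Figure D5:**
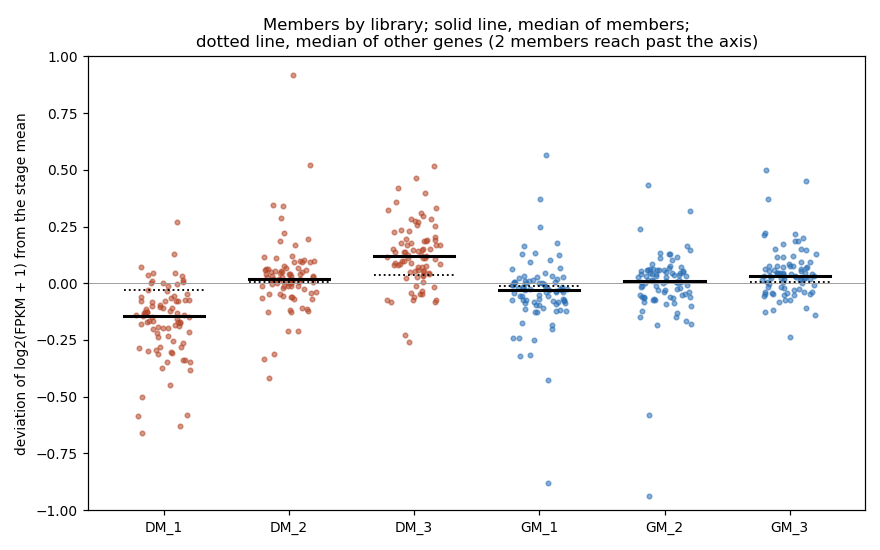
Deviation of log2(FPKM + 1) from the stage mean (vertical axis) of each tested member in each library, DM left and GM right, with the median of the members as a solid line and that of the other genes as a dotted line. The members' median is −0.14 in DM_1 and 0.12 in DM_3, and stays between −0.03 and 0.03 in GM.

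Other genes of replication and repair, outside the naming rule, were taken from a list of 103 symbols. In the table, 78 were found and 77 were tested, of which 12 fell and 5 rose. The lower calls were 15.6% of the list (15.5% of all genes), the higher calls 6.49% (14.7% of all genes) and both together 22.1% (30.3% of all genes). The median log2 fold change was −0.14, lower than the −0.03 of all genes. By role, 2 of 9 initiation genes fell and 1 rose, 4 of 14 fork and chromatin genes fell, 3 of 15 E2F and RB genes fell, 1 of 6 checkpoint genes fell, and 2 of 27 other repair genes fell and 4 rose. Of the 6 nucleotide supply genes, 0 passed the test in limma, also at an unadjusted p under 0.05. The lower calls of the list numbered 7 without GM_1 or without GM_2 and 8 without GM_3. Its higher calls numbered 1 without GM_1, GM_2 or GM_3, 0 without DM_2 and 2 without DM_3.

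The lowest adjusted p of this list belonged to RB1, the retinoblastoma protein that restrains E2F factors. RB1 had 16.8, 19.3 and 16.6 FPKM in DM libraries, against 33.3, 34.4 and 34.5 FPKM in GM libraries, a log2 fold change of −0.92 (SE 0.07, adjusted p = 0.000616). XPA, which verifies lesions in nucleotide excision repair, had 15.3, 16.6 and 16.0 FPKM in DM libraries, against 24.2, 24.9 and 24.7 FPKM in GM libraries (log2 fold change −0.60, adjusted p = 0.00120). E2F1, an activator of S phase genes, had 9.24, 8.88 and 9.29 FPKM in DM libraries, against 13.1, 14.4 and 13.8 FPKM in GM libraries (log2 fold change −0.54, adjusted p = 0.00214). In these 3 genes the libraries of each stage lay close together, far apart from those of the other stage. They were taken for the lowest adjusted p-values, which favors such values, so they do not speak for the list. Of its 77 tested genes, 55 (71.4%) had their lowest DM value in DM_1, compared with 46.9% of all genes. The list's median deviation from the DM mean was −0.11 in DM_1 and 0.10 in DM_3.

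Of the next genes of this list, 5 fell and 2 rose, all without overlap of the stages. They were taken for their low adjusted p-values, which favors stages without overlap. In the whole list the stages did not overlap in 34 of 77 tested genes (44.2%, compared with 48.6% of all genes). GADD45B, a stress gene, had 30.7, 27.8 and 26.9 FPKM in DM libraries, against 43.3, 49.5 and 42.4 FPKM in GM libraries (log2 fold change −0.64, adjusted p = 0.00324). CHTF18, a subunit of an alternative clamp loader, had 3.19, 3.14 and 2.95 FPKM in DM libraries, against 4.30, 4.56 and 4.61 FPKM in GM libraries (−0.42, adjusted p = 0.00856). E2F7, a repressor of E2F targets, had 1.39, 1.13 and 1.27 FPKM in DM libraries, against 2.33, 4.27 and 3.21 FPKM in GM libraries (−0.89, adjusted p = 0.0123). In E2F7 the spread was wider in GM than in DM. DNMT1, the maintenance methyltransferase, had 16.8, 17.1 and 19.3 FPKM in DM libraries, against 24.4, 23.1 and 27.6 FPKM in GM libraries (−0.47, adjusted p = 0.0126). CDT1, the MCM loading factor, had 0.536, 0.700 and 0.911 FPKM in DM libraries, against 1.42, 1.36 and 1.27 FPKM in GM libraries (−0.46, adjusted p = 0.0166).

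The other two genes were higher in all DM libraries. NHEJ1, an end joining factor, had 1.44, 1.98 and 2.00 FPKM in DM libraries, against 1.08, 0.932 and 0.807 FPKM in GM libraries (log2 fold change 0.53, adjusted p = 0.0161). XPC, a lesion sensor, had 4.61, 5.19 and 5.63 FPKM in DM libraries, against 3.48, 3.49 and 3.80 FPKM in GM libraries (0.42, adjusted p = 0.0185). With a pseudocount of 0.1 the log2 fold change of CDT1 was −0.85 and that of NHEJ1 was 0.87. The calls of CDT1 and XPC were each lost without GM_1, GM_2 or DM_2 and that of NHEJ1 without GM_2, GM_3 or DM_2, with adjusted p-values of up to 0.0632.

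The inhibitor of CDT1 was the DEG of this list, and is named here because of its value. GMNN, which encodes geminin, had 3.15, 5.77 and 5.77 FPKM in DM libraries, against 1.66, 2.34 and 0.980 FPKM in GM libraries. Its libraries did not overlap, and it rose with a log2 fold change of 1.15 (SE 0.27, adjusted p = 0.0228). Leaving out GM_1, GM_3, DM_2 or DM_3 alone ended that call (up to 0.0741). CDC45, which completes the active helicase with GINS, had 4.80, 5.90 and 7.13 FPKM in DM libraries, against 9.16, 9.25 and 8.58 FPKM in GM libraries. It fell (log2 fold change −0.54, adjusted p = 0.0261), a call that ended without GM_1, GM_2, GM_3 or DM_2 (up to 0.0791). The thymidine kinase gene TK1 had 2.89, 112 and 124 FPKM in DM libraries, against 78.0, 88.1 and 83.6 FPKM in GM libraries, DM_1 alone being low.

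The assembly also listed 30 long noncoding transcripts assigned to 14 member genes, of which 19 were intronic, 7 shared splice junctions with the gene, 3 were antisense and 1 overlapped exons. Of 25 that were tested among all 12988 such transcripts, 1 passed (3.62% of all passed) and 4 had an unadjusted p under 0.05. It was a transcript of 4 exons and 888 bases that shares junctions with RAD51AP1, on the plus strand of scaffold NW_013185872.1 from 1051448 to 1058981 in the coordinates of the files. It was listed at 0 in all 3 DM libraries and had 8.24, 1.34 and 6.31 FPKM in GM libraries (adjusted p = 0.0343 by limma). It reached the 0.5 FPKM minimum through GM alone, the stage where it was high, so its call supports nothing on its own. Leaving out any library other than GM_2 ended this call.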

How the data were processed

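Libraries of 3 DM and 3 GM cultures, prepared as stranded total RNA without ribosomal RNA, were used. The authors trimmed adaptors with Cutadapt, aligned reads to a goose genome (the methods name Bowtie2 and assembly GooseV1.0, the submitters' processing notes HISAT2 and TopHat), assembled them with StringTie and deposited FPKM values per gene and per noncoding transcript, with 0.0001 in place of 0. Versions are not given in the sources used here. The tables also hold the authors' fold change, p-value, adjusted p-value and direction, which were not used. No per-sample column was left out.

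The 10381 genes averaging 0.5 FPKM or more over the libraries were tested with limma 3.58.1 in R 4.3.3, using lmFit and trended eBayes on log2(FPKM + 1) without covariates and Benjamini-Hochberg adjustment over all of them. The procedure was also run on simulated data with independent noise and planted changes of 2-fold or more. That run does not bear on smaller changes, such as those of the members called here. Depth per library cannot be read from FPKM, and the read numbers per library that the paper lists were not used. Tables and plots were made with Python 3.11.15 and matplotlib 3.10.9.

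Per-library values are given for every DEG, for up to 3 members of each role with the smallest adjusted p-value under 0.05, for PCNA, those of MCM2 to MCM7 that had a row, RRM1, RRM2 and TOP2A, and for the 10 lowest adjusted p-values of the other list. FEN1, MSH6, RRM2B, MCM10, RAD51AP1, RPA1, XRCC6, ERCC8, TK1 and CDC45 were added after their values were seen. Some items are not reported here. The members and lists were chosen with earlier results of these data known. Of 87 member names, 85 matched the RefSeq table of a newer goose assembly, which was used for names only. Alternatives were another pseudocount, other filters, 3 scalings, no trend, a replicate block and each library left out.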

Additional observations from a re-analysis of the deposited data

How the results depend on the processing

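Of 42 genes computed under the alternatives (37 under all 15, 5 under fewer), 2 changed sign under at least 1 of them and 0 did so while past the test. With a pseudocount of 0.1 the DEGs over all genes were 810, and 1084 without a filter as well, against 417. Of the other list, 2 genes instead of 5 were higher with a minimum mean of 2 FPKM, and 19 instead of 12 were lower with upper quartiles made equal. With upper quartiles made equal, 13 members were lower and 5 higher, 21.2% of the members against 32.5% of all genes. Whether the replicate numbers pair the libraries was not settled. The deviations of same-numbered libraries correlated at 0.0337, 0.0211 and −0.00245, and those of the others between −0.0637 and 0.0480. DM_1 correlated best with GM_1 and DM_2 with GM_2, but DM_3 with GM_2. All of these correlations were weak and cannot show or exclude a pairing. With the replicate block 4 members were lower instead of 9, 2 genes of the other list were higher, all genes called numbered 2565 against 3143, and 0 noncoding transcripts at members passed instead of 1. With each library left out in turn, members called lower numbered 2 to 8 and higher 1 to 8, those of the other list 7 to 15 and 0 to 5, all genes 981 to 1482 and 963 to 1593, all DEGs 407 to 427, member DEGs 0 to 1, transcripts at members 0 to 1, and the members' median log2 fold change lay between −0.14 and 0.01. Leaving out a library also removes residual degrees of freedom. The planned search of promoters for motifs was not run, since no promoter sequences of this goose were used here. Limits are the 3 libraries a stage, the unknown number of reads behind each value and the rows that join several genes.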
